A study of Mus musculus with 59 samples.

Results

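The CTCF peak list of day 12 Oct4-GFP+ reprogramming cells was compared with that of mouse embryonic stem cells (ESCs), to see which ESC sites the cells held on day 12, which they did not, and which of their own sites were absent from ESCs. An ESC site counted as reached when a day 12 site overlapped it by at least 1 bp. The ESC list holds 83173 sites and the day 12 list 53043, which together are 136216 of the 588665 sites in the 11 lists read here. Of the ESC sites, 49590 were reached and 33583 were not, and 3276 day 12 sites overlapped no ESC site. "Reached" names an overlap of lists only: these ESCs were not made from the day 12 cells.

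The day 12 cells began as OG2 mouse embryonic fibroblasts (MEFs), which carry an Oct4-GFP reporter. They were given doxycycline-inducible OSKM (Oct4, Sox2, Klf4 and c-Myc) by lentivirus together with the activator rtTA, were kept in ESC medium with vitamin C, and were sorted as GFP+. They also carried a control shRNA against luciferase, so no list of this system is from cells without a virus. The label gives 3 ChIP samples for the day 12 control group and 1 list. The ESC list comes from 1 ChIP sample of wild-type E14Tg2a, an established male mouse ESC line, at passages 20 to 24, in serum with LIF and inhibitors of MEK and GSK3. The other lists used for comparison came from control-shRNA cells at day 0, from sorted Thy1+ cells of days 3 and 9, and from sorted SSEA1- Thy1- and SSEA1+ cells of days 6 and 9. Unsorted day 10 cells with OSKM alone or with OSKM and added Ctcf gave a list each, as did GFP+ cells sorted on day 12 after Ctcf knockdown by shRNA. The last lists were CTCF in E14 cells with a Cas9 knockout of Smarca5, and SMARCA5 in E14 cells that overexpress a biotin-tagged copy and were picked as single clones. The titles and the source names of the day 3 Thy1+ samples disagree on which received Ctcf shRNA, so each Thy1+ value carries that doubt.

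CTCF is a zinc finger protein that binds a long, fixed DNA motif. It stops the loops that cohesin extrudes, so that bound sites mark the borders of domains and can insulate a promoter from an enhancer. Many sites are bound in nearly every cell type, while others depend on DNA methylation and on open chromatin. Thy1 marks fibroblasts, SSEA1 marks cells that have entered reprogramming, and Oct4-GFP marks cells in which the Oct4 regulatory sequence has become active. CTCF peaks do not measure mRNA, so the identity of the sorted cells could not be checked against expression markers.

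Promoters were the places where the sites could be read as sequence. RefSeq windows (GRCm38.p6, from 250 bases before to 50 after each gene's start, in the gene's direction) held the centre of a reached ESC site 1443 times, of an unreached one 1009 times and of a day 12 site absent from ESCs 171 times. They were searched on both strands for CCANNAGNNGGC, a core of the CTCF motif. It was found in 229 of the reached windows (15.9%, Wilson 95% interval 14.1% to 17.8%), in 53 of the unreached windows (5.25%, 4.04% to 6.81%) and in 8 of those absent from ESCs (4.68%, 2.39% to 8.96%). Of all 32817 promoter windows, 796 hold it (2.43%). Reached and unreached windows thus differed by 10.6 percentage points (normal 95% interval of the difference 8.28 to 13.0), while windows of unreached sites and of sites absent from ESCs had overlapping intervals. With the looser core CCNNNAGNNGGC, which contains the first, the shares were 38.5% in reached windows, 19.9% in unreached windows (17.6% to 22.5%) and 10.5% in those absent from ESCs (6.76% to 16.0%), against 8.61% of all windows. The intervals of the 3 classes did not overlap there, though that of the windows absent from ESCs includes the share of all windows. With the stricter core CCANNAGGNGGC the shares were 9.08%, 2.28% (1.52% to 3.40%) and 3.51% (1.62% to 7.44%), with the order of the last 2 turned and their intervals overlapping, against 0.914% of all windows.

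Stretches around the core are shown for genes of the lists described further on, with the matching bases in capitals. A match on the other strand reads as the reverse complement of the core. The stretches were picked because they match, so they do not give how often a class holds the core. Reached windows such as those of Hoxd10, Snai1 and Hoxa5 hold neither core, nor do unreached ones such as those of Prrx1, Pds5a and Kit. The unreached window of Neurog1, which is not printed, holds the looser core. The first 4 lie at reached ESC sites and match the looser core alone, Gnas on the other strand and the rest on the gene's strand. They are from Gnas, an imprinted gene for a G protein subunit, on the plus strand at chr2:174284148-174284199, Pds5b, a regulator of cohesin, on the plus strand at chr5:150673673-150673724, Tgfb1, a growth factor of mesenchymal cells, on the plus strand at chr7:25686774-25686825, and Dab2, an endocytic adaptor of the primitive endoderm, on the plus strand at chr15:6386593-6386644.
Gnas: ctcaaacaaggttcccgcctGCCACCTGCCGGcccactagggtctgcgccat
Pds5b: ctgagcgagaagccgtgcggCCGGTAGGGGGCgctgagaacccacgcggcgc
Tgfb1: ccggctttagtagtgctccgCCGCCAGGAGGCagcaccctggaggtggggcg
Dab2: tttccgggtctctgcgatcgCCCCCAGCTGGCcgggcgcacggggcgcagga

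The promoter of Smarca5, which encodes the ISWI remodelling enzyme whose knockout list is used below, lies at an unreached ESC site (chr8:80739386-80739785). Its stretch, on the minus strand at chr8:80739523-80739638, holds 3 matches to the looser core and none to the first, so a match alone did not separate the classes. The first and the last match are on the other strand, and the first and the middle one adjoin in a single run of capitals.
Smarca5: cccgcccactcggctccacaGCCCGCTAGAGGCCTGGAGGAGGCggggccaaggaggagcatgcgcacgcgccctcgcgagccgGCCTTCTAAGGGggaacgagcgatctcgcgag
Day 12 sites absent from ESCs were shown by 3 genes outside the lists, taken in chromosome order from the windows that hold the first core. Nifk encodes a nucleolar protein, Bcl2l1 an inhibitor of apoptosis and Ndufaf4 an assembly factor of mitochondrial complex I. Their stretches are on the plus strand at chr1:118321726-118321777, on the minus strand at chr2:152830688-152830739 and on the plus strand at chr4:24898007-24898058.
Nifk: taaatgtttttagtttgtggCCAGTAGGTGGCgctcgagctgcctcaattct
Bcl2l1: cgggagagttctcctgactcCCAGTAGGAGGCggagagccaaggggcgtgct
Ndufaf4: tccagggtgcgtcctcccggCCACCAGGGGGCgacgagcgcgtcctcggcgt

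Of the 30 genes of the pluripotency list, 18 had a promoter window in the table. Of those 18, only Tfcp2l1, which encodes a transcription factor of the naive state, had the centre of an ESC site or of a day 12 site absent from ESCs nearest to its window and inside it. That ESC site (chr1:118627740-118628139) was reached. The window is printed whole, on the plus strand at chr1:118627695-118627994, and holds neither core, which says only that these letters are not in these bases.
Tfcp2l1: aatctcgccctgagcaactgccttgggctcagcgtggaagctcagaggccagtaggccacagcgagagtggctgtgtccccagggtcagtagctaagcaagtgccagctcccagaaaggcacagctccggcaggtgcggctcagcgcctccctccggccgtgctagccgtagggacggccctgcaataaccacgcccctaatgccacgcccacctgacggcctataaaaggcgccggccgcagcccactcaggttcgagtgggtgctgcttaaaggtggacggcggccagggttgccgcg
Promoter windows with reached ESC sites had a median GC content of 60.7%, those with unreached sites 66.3%, those with sites absent from ESCs 61.7% and all windows 52.7%.

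Day 12 cells held 59.6% of the ESC sites (Wilson 95% interval 59.3% to 60.0%), and 40.4% were not reached. In the other direction, 93.8% of the day 12 sites were found in ESCs (93.6% to 94.0%) and 6.18% were absent (5.97% to 6.38%). The day 12 list is 63.8% as long as the ESC list and could thus hold at most about that share of it, apart from sites that overlap more than 1. There is 1 list per group, so the intervals cover counting error only, no spread between cultures can be given and no test between groups was possible. Every site is 400 bp wide with a score of 0 in the authors' lists, and so an unreached site is one that was not listed, which cannot be told apart from weak binding or a shallower library.

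The division at 1 bp was a sharp one. Shared day 12 sites overlapped their ESC site by a median of 392 bp and 99.2% overlapped by 200 bp or more, while 26 of 49767 lay just inside the rule with an overlap of 1 to 50 bp. Just outside it, 13 of the 3276 sites absent from ESCs had an ESC site at most 50 bp away. Their median distance to the nearest ESC site was 5304 bp, and 1081 of them (33.0%) were over 10 kb from any. Coordinates are shared within sets of lists: the day 12 list shares its start positions with the other sorted lists and the ESC list with the knockout and SMARCA5 lists, whereas 2589 day 12 sites (5.20%) have the same position as an ESC site. Overlaps within a set can be raised by this, and the day 12 to ESC comparison runs across 2 sets.

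Set beside the other lists, day 12 held the largest share of ESC sites of the 8 lists from fibroblasts and reprogramming cells, but the control lists of sorted cells came close to it. The day 0 list held 33.3% of the ESC sites, the Thy1+ list 58.4%, the SSEA1- Thy1- list 57.4% and the SSEA1+ list 58.5%. On day 10, the list with OSKM alone held 49.8% and that with added Ctcf 57.9%. Day 12 cells with Ctcf shRNA held 39.7%. These lists have between 28838 and 53043 sites, and their order by length differs little from their order by this share. In the other direction, between 92.2% and 96.0% of each list's sites were found in ESCs.

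Most reached ESC sites were also on the day 0 control list or on a list of sorted control cells. Of the 49590, the day 0 list held 53.0%, and a further 28.5% were first listed in Thy1+, 6.73% in SSEA1- Thy1- and 2.92% in SSEA1+ cells, reading the 4 control lists in that order. The remaining 4379 (8.83%, 8.58% to 9.08%) were in none of these 4. Of those, 879 were on the day 10 list with added Ctcf, and 3496 reached sites were in none of the 6 other control and day 10 lists of reprogramming cells. Of the 33583 unreached sites, 4.15% were in the day 0 list and 21575 (64.2%, 63.7% to 64.8%) in none of the 4. Another 12008 unreached sites (35.8%) were listed in at least 1 of the earlier populations and not on day 12, among them 803 (2.39%) that all 4 held. The order is one of lists and not of single cells. It is not an order in time either, since the Thy1+ list pools days 3 and 9. The SSEA1- Thy1- and SSEA1+ lists each pool days 6 and 9.

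Day 12 sites absent from ESCs were read against the same lists. The day 0 list held 12.8% of them, 30.8% were first listed in Thy1+, 13.0% in SSEA1- Thy1- and 6.20% in SSEA1+ cells, and 1220 (37.2%) were in none of the 4. Day 0 fibroblasts therefore listed 418 of the 3276, and 327 (9.98%) were in all 4 earlier lists. Sites of the day 0 list were thus a minority of them. Of the day 12 sites shared with ESCs, the day 0 list held 53.2% and all 4 lists 52.1%. The day 0 list is the shortest of the 4, with 28838 sites, and does not share the day 12 coordinates. The Thy1+ list held 41.3% of the sites absent from ESCs. The Smarca5 knockout ESC list, a second list of the same ESC line, held 245 of the 3276 (7.48%). Of its 89567 sites, 80776 have the position of a wild-type ESC site and so could not overlap any of the 3276, which keeps this share low by the rule.

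**Figure D1:**
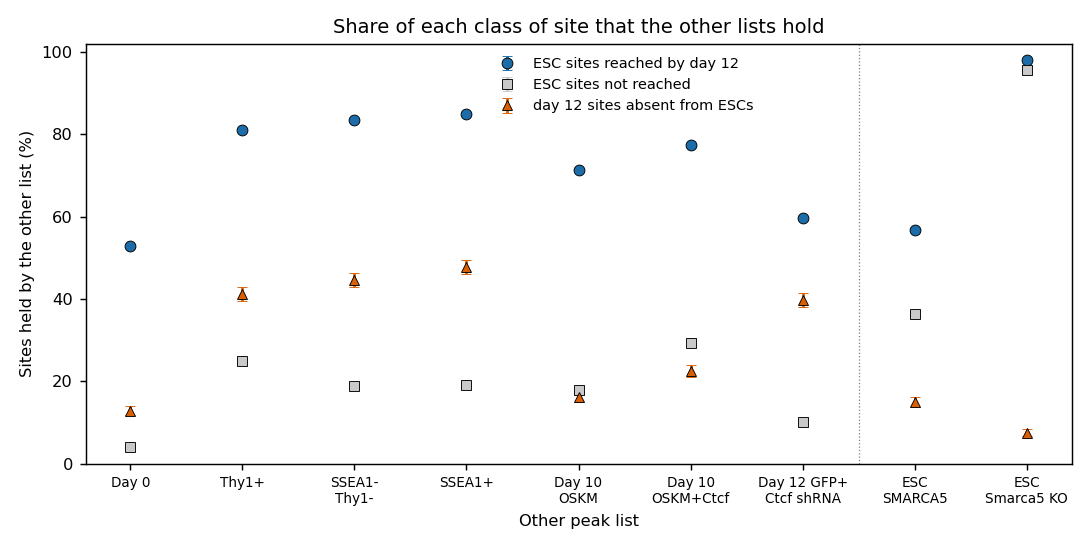
Share (%) of 3 classes of site that each other list holds, for the 7 lists of fibroblasts and reprogramming cells left of the dotted line and the 2 further ESC lists right of it. Points are shares and bars Wilson 95% intervals, which are often smaller than the points; reached ESC sites lie above unreached ones in every list, and sites absent from ESCs lie at 47.9% in SSEA1+ but at 16.2% in the day 10 OSKM list.

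List by list, reached sites were held more often than unreached ones in all 9 other lists, as the plot of the shares by list shows. SSEA1+ cells held 85.1% of the reached and 19.2% of the unreached sites, and the day 10 OSKM cells 71.3% and 17.9%. Added Ctcf on day 10 went with 77.4% of the reached and 29.3% of the unreached sites. Sites on that list and not on the day 10 OSKM list ran the other way, at 6.05% of the reached and 11.4% of the unreached sites. Among sites in none of the 4 earlier control lists, added Ctcf went with 879 of 4379 reached sites (20.1%, 18.9% to 21.3%) and 3232 of 21575 unreached ones (15.0%, 14.5% to 15.5%). Sites of the day 10 OSKM list were not left out of these counts. Seen from the earlier list, 86.8% of the ESC sites in the SSEA1+ list were reached on day 12 and 21.4% of those absent from it, while 26289 of the 27683 in the day 0 list were reached. The SSEA1+ and day 12 lists share coordinates, while the day 0 and day 10 lists do not share them with day 12.

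Whether an ESC site was reached followed how many of the 6 other control and day 10 lists of reprogramming cells held it. Of 21825 ESC sites in none of the 6, 16.0% were reached, and the share was 34.3% with 1 list, 43.7% with 2, 59.5% with 3, 68.5% with 4, 85.4% with 5 and 97.6% among the 25417 sites in all 6. Sites in none of the 6 made up 18329 of the unreached sites (54.6%) and 3496 of the reached sites (7.05%). Day 12 sites absent from ESCs ran the other way. They were 25.0% of the day 12 sites in no other list, 17.4% with 1, 13.0% with 2, 10.4% with 3, 5.75% with 4, 2.25% with 5 and 0.885% with all 6. The lists share cells of one system and their coordinates in part, so this is a description of listed sites.

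**Figure D2:**
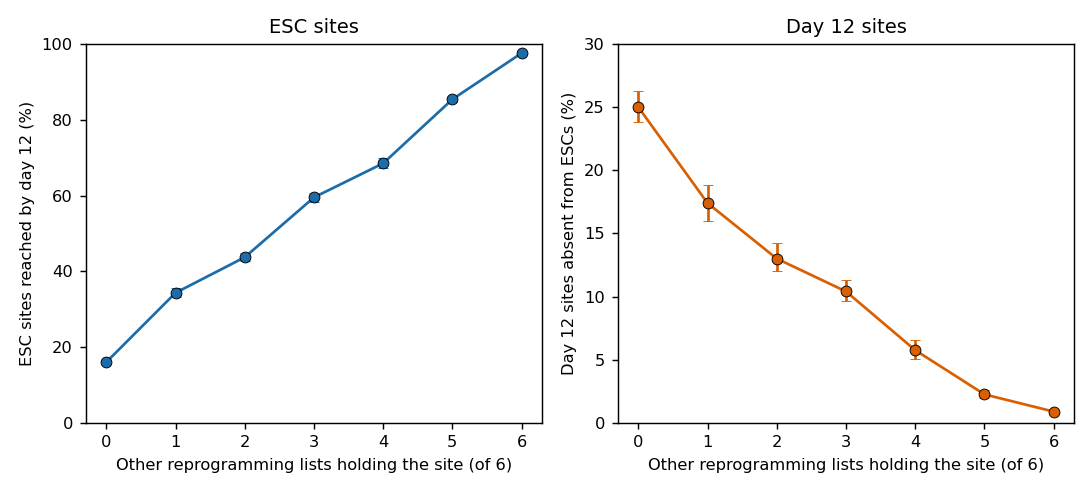
Share (%) of ESC sites reached by day 12 (left) and of day 12 sites absent from ESCs (right) against the number of the 6 other reprogramming lists that hold the site. Points are shares with Wilson 95% intervals; the left share goes from 16.0% to 97.6% and the right share from 25.0% to 0.885%, with no step out of order.

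SMARCA5, the ATPase of ISWI remodellers that slide nucleosomes beside CTCF, was listed at 56.8% of the reached and 36.4% of the unreached ESC sites, a difference of 20.4 points (19.7 to 21.1). Sites that recur in many lists carried SMARCA5 more often. Among ESC sites in neither the day 0 nor the day 10 OSKM list, SMARCA5 was at 38.3% of the reached and 33.5% of the unreached. Among those in both, it was at 67.6% and 46.1%. Averaged within the classes of recurrence the difference was 10.2 points.

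In the Smarca5 knockout ESCs, 98.1% of the reached and 95.6% of the unreached sites were still listed, a difference of 2.49 points (2.24 to 2.74). At sites in neither the day 0 nor the day 10 OSKM list, 94.1% of the reached and 94.9% of the unreached ones were kept. At sites in 1 of these 2 lists the shares were 99.2% and 98.7%, and at sites in both 99.8% and 99.1%. Averaged within the classes of recurrence, weighted by their size, the difference was -0.0949 points. The knockout and wild-type lists share coordinates, and each is 1 ChIP sample.

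Ctcf shRNA in the day 12 cells left 59.8% of the sites shared with ESCs and 39.7% of the sites absent from ESCs on the list, a difference of 20.1 points (18.3 to 21.8). At sites in both the day 0 and the day 10 OSKM list the shares were 79.0% and 60.1%, and at sites in neither list 34.1% and 36.6%. At sites in 1 of these 2 lists both shares were 46.6%. Averaged within the classes of recurrence the difference was 8.37 points. Of the 49767 shared sites 25352 were in both lists, against 271 of the 3276 sites absent from ESCs. The full difference thus also reflects how many sites of each kind recur. The shRNA list is shorter, with 35803 sites.

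In the genome, unreached ESC sites lay inside protein-coding genes more often than reached ones, 57.7% against 51.1%. Reached minus unreached was -6.56 points (-7.25 to -5.87). They also had a transcription start within 1000 bp more often, 11.1% against 8.23%. Day 12 sites absent from ESCs had one in 12.3% of cases (11.2% to 13.5%). Pairs of close sites were commoner there too, since 7.42% of the sites absent from ESCs had the next day 12 site starting within 1000 bp, against 2.38% of the shared sites. On the X chromosome 66.9% of the ESC sites were reached, and on the autosomes between 55.4% and 62.0%.

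Genes of the pluripotency network had 148 ESC sites within 10 kb of their spans, of which 79 were reached (53.4%, 45.4% to 61.2%), against 59.5% at protein-coding genes as a whole. They had 7 day 12 sites absent from ESCs among 85 (8.24%, against 6.18% overall). Few of the 148 recur: 20.9% were in the day 0 list, and all ESC sites held by as many other lists as these were reached in 46.7% of cases, which lies inside the interval of the list. Of the 29 genes with an ESC site, 2 had all of them reached, Utf1 with 2 and Nr0b1 with 1, and 1 had none, Klf2 with 1. Over all 17874 protein-coding genes with an ESC site, 26.4% had all reached and 10.7% none. Such shares depend on how many sites a gene has, up to 15 in this list, and were not matched for it.

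**Figure D3:**
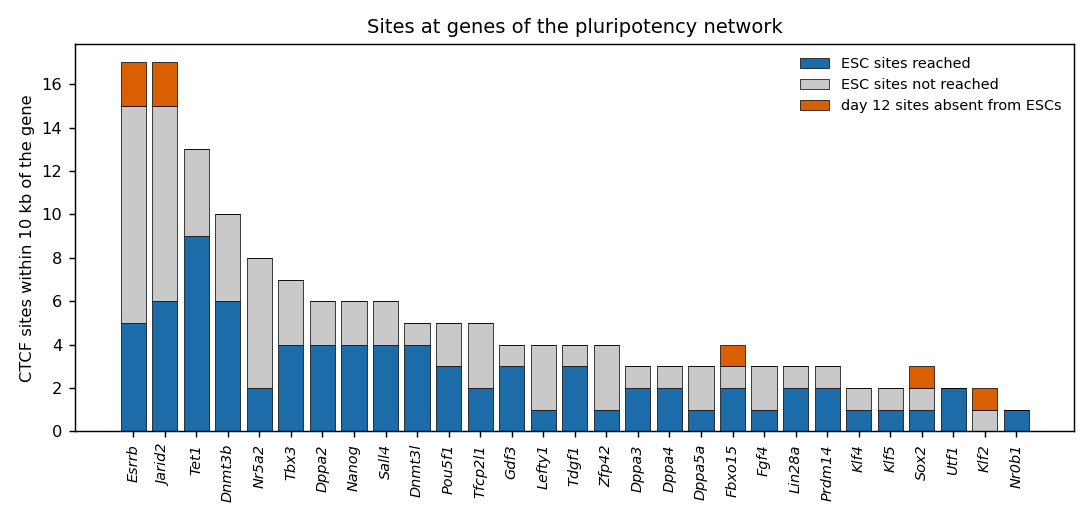
Number of CTCF sites within 10 kb of genes of the pluripotency network, split into ESC sites reached on day 12, ESC sites not reached and day 12 sites absent from ESCs. Esrrb and Jarid2 carry 15 ESC sites each, with 5 and 6 reached, while Tet1 has 9 of 13 reached.

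Of the genes for the reprogramming factors, Pou5f1, Sox2 and Klf4 were on the list, and each had an unreached site. Pou5f1, which encodes Oct4, had 3 of 5 ESC sites reached. With positions counted from its start, the 2 unreached ones lay at -9312 bp (chr17:35496520-35496919) and, inside the gene, at 3448 bp (chr17:35509280-35509679). The site 2419 bp after the start, inside the gene, was listed on day 12 and in none of the 6 other lists of reprogramming cells, whereas the one 8033 bp after it was in every list, day 0 included. The cells were sorted by a reporter of this gene.

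Sox2, a partner of Oct4, had 1 of 2 ESC sites reached. The unreached site, at -2095 bp from the start (chr3:34647700-34648099), was listed in both day 10 populations. A day 12 site 926 bp after the start, inside the gene (chr3:34650721-34651120), was listed in all 6 other reprogramming lists as well, from day 0 on, and was absent from both wild-type and knockout ESCs. Klf4 had 1 of 2 sites reached, with the site 2038 bp after its start in every list. Nanog, a homeodomain factor of the same core, had 4 of 6 reached, and the site 6110 bp after its start was listed on day 12 and in no other list of reprogramming cells.

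Factors of the naive state differed among themselves. Esrrb, an orphan nuclear receptor, had 5 of 15 ESC sites reached, and of the 10 unreached ones all were in none of the 6 other reprogramming lists. Of its reached sites, those 41802 and 72343 bp after the start were in every reprogramming list from day 0 on, the one at 123413 bp appeared in SSEA1+ cells, and those at 83612 and 155192 bp were listed on day 12 first. It also had 2 sites absent from ESCs, 146882 and 147689 bp after the start. Nr5a2, another nuclear receptor, had 2 of 8 reached, both in every list, and the 6 unreached ones included the 2 nearest to its start, at 7322 and 11256 bp. Tfcp2l1 had 2 of 5 reached, at -5 and -4917 bp from its start. Zfp42, the ESC marker Rex1, had 1 of 4, Tbx3 4 of 7, Prdm14 2 of 3, Klf5 1 of 2 and Klf2 0 of 1.

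**Figure D4:**
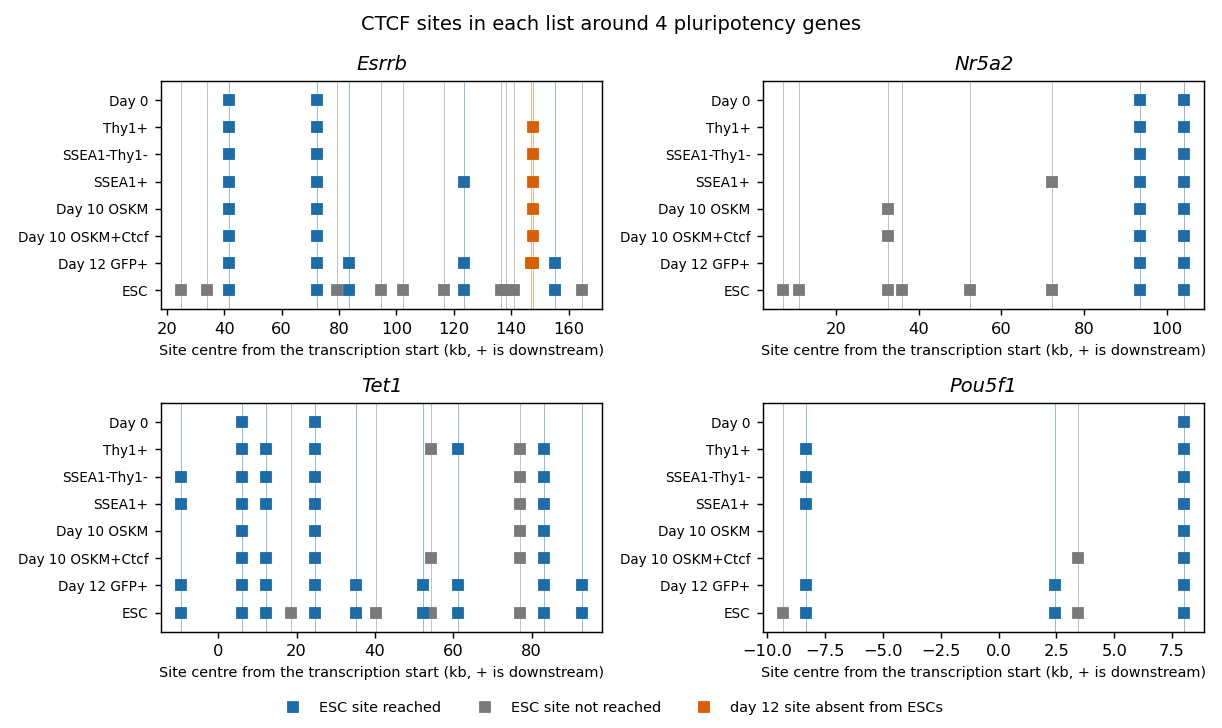
CTCF sites by list around Esrrb, Nr5a2, Tet1 and Pou5f1, with the distance of each site's centre from the gene's transcription start (kb) on the horizontal axis and 8 lists on the vertical axis. A square marks a site held by that list; at Esrrb 2 columns of blue squares run through all lists while the 10 grey squares of unreached sites are in the ESC row and in none of the other 7 rows drawn, and at Tet1 9 of 13 ESC sites have a day 12 square.

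Tet1, Dnmt3b and Dnmt3l, all genes of DNA methylation, had more sites reached than not. Tet1, which oxidises methylcytosine, had 9 of 13 ESC sites reached. Day 12 cells held 3 of these 9 that none of the 6 other lists had, at 92911, 52225 and 35126 bp after the start. At 77129 bp, by contrast, an ESC site that the 3 earlier sorted lists and both day 10 lists held was not on the day 12 list. Dnmt3b, a de novo DNA methyltransferase, had 6 of 10 reached, with the site 322 bp after its start among the unreached. Dnmt3l, its cofactor, had 4 of 5. Jarid2, a subunit of Polycomb repressive complex 2, had 6 of 15 reached, and of its 9 unreached sites 6 were in no other reprogramming list. It also had 2 sites absent from ESCs.

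The remaining members each had between 1 and 6 ESC sites. Dppa2, a chromatin factor of early embryos, had 4 of 6 reached, its neighbour Dppa4 2 of 3, Dppa3 2 of 3 and Dppa5a 1 of 3. Sall4 had 4 of 6 reached, Lin28a, an RNA-binding protein, 2 of 3 and Fbxo15, an Oct4 target, 2 of 3 with 1 site absent from ESCs. Among the secreted factors, Fgf4 had 1 of 3 reached, Gdf3 3 of 4, Lefty1, an inhibitor of Nodal, 1 of 4 and Tdgf1, a Nodal coreceptor, 3 of 4.

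Ligands, receptors and targets of LIF, BMP and FGF signalling, which hold ESCs between self-renewal and differentiation, had 53 of 82 ESC sites reached (64.6%, 53.8% to 74.1%). Bmpr1a, a BMP receptor, had 10 of 13. Stat3, the factor that carries the LIF signal, had 3 of 6 reached, as did Etv5, a target of FGF signalling. Smad5, a BMP effector, and Spry2, an FGF feedback inhibitor, had 2 of 2 each. The share of all ESC sites, 59.6%, lay inside the list's interval.

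Polycomb and DNA methylation genes had 69 of 121 reached (57.0%, 48.1% to 65.5%), with no gene of 18 all reached and none wholly unreached. Over all protein-coding genes with an ESC site, 26.4% had all reached and 10.7% none. These counts were not matched for the number of sites per gene, which is up to 15 in this list. Polycomb and DNA methylation genes had 8 sites absent from ESCs among 76 day 12 sites (10.5%), against 6.25% of the day 12 sites near protein-coding genes as a whole. The counts are small and were not tested. Epithelial genes had 5 of 49 (10.2%), and the 12 lists ran from 1.47% to 10.5%. Of the 8 sites at Polycomb and DNA methylation genes, 3 were at Dnmt3a, a de novo methyltransferase, all inside the gene. Dnmt3a had 5 of 8 ESC sites reached. Suz12, of Polycomb repressive complex 2, had 4 of 8 ESC sites reached and Phf19, an accessory subunit, 2 of 6.

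Fibroblast and mesenchymal genes had 65 of 116 ESC sites reached (56.0%, 47.0% to 64.7%). Their sites recur more, with 37.9% in the day 0 list, and all ESC sites held by as many lists were reached in 66.4% of cases, just above the upper bound of the list. Col5a1, a fibrillar collagen, had 5 of 11 reached, Runx1, a transcription factor of blood and mesenchyme, 3 of 9 and Fn1, fibronectin, 2 of 6. Pdgfra, a receptor of mesenchymal cells and primitive endoderm, had 4 of 4 reached and Col1a2, a chain of type I collagen, 3 of 3. All of those 7 sites were in the day 0 list.

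Epithelial genes, which belong to the state that fibroblasts enter early in reprogramming, had 44 of 71 reached (62.0%, 50.3% to 72.4%). Cdh1, E-cadherin, had 7 of 9 reached, of which 2 were in the day 0 list and 6 in the SSEA1+ list. Grhl2, an epithelial transcription factor, had 6 of 12, and Esrp2, a splicing regulator, 3 of 3. Ovol1, a repressor of mesenchymal genes, had 0 of 2 ESC sites reached and 2 day 12 sites absent from ESCs. One of these, at chr19:5567523-5567922, ends with 8 bases between it and the unreached ESC site at chr19:5567931-5568330, so both calls there rest on the 1 bp rule.

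Extraembryonic regulators of trophoblast and primitive endoderm had the second highest share of the 12 lists, 40 of 52 (76.9%, 63.9% to 86.3%), and also sites that recur, with 50.0% in the day 0 list; ESC sites held by as many lists were reached in 74.5% of cases. Elf5, a trophoblast factor, and Gata4, a primitive endoderm factor, had 5 of 5 each. Cdx2 and Eomes, both trophoblast factors, had 3 of 5 each. Neural genes had 39 of 59 reached (66.1%), among them Rbfox3, a neuronal splicing factor, with 16 of 25, and haematopoietic genes 23 of 45 (51.1%, 37.0% to 65.0%), with Kit, a growth factor receptor, at 2 of 6. CTCF sites beside these lineage genes do not report on their expression.

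Imprinted genes, where CTCF is known to bind 1 parental allele at some control regions, had 41 of 78 ESC sites reached (52.6%, 41.6% to 63.3%), below the 64.6% of ESC sites held by as many lists. The domain of Dlk1, Meg3 and Rtl1 on chromosome 12 stood low. Rtl1, a retrotransposon-derived gene of placenta and muscle, had 0 of 6 reached and Meg3, a maternal noncoding RNA, 1 of 6; 3 of their sites are the same ones. The reached site of Meg3 is 2040 bp after its start and in every list. The site just beside it, 1197 bp after the start (chr12:109541993-109542392), was in all 6 other reprogramming lists and not on the day 12 list. Airn, a paternal noncoding RNA, had 3 of 9 reached. Cdkn1c, a cell cycle inhibitor, and Mest, a hydrolase, had 3 of 3 each.

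Clustered protocadherins, cell surface proteins of neurons whose promoters are chosen through CTCF loops, had the highest share of the 12 lists. Of 78 ESC sites, 66 were reached (84.6%, 75.0% to 91.0%), above the 66.5% of ESC sites held by as many lists. Only 20.5% of the 78 were in the day 0 list, and 79.5% had a SMARCA5 peak in ESCs, against 48.6% of all ESC sites. Genes of the clusters lie close together and share sites, so these are 78 sites of 3 neighbouring clusters on chromosome 18. Pcdhb16 and Pcdhb17 had the same 7 of 7 reached, of which 1 was in the day 0 list and 4 in the SSEA1+ list, and Pcdha1 had 11 of 14. Similar families can share reads, and how such reads were counted is not given in the sources used here.

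Hox genes had 26 of 43 reached (60.5%, 45.6% to 73.6%), below the 70.2% of ESC sites held by as many lists, which lies inside the interval. Among them were Hoxd10 and Hoxd11 at 4 of 4 each, Hoxa3 at 5 of 7, Hoxa9 at 1 of 3 and Hoxc13 at 0 of 3. CTCF, cohesin and ISWI genes had 62 of 101 reached (61.4%, 51.6% to 70.3%). Smc3, a core cohesin subunit, had 5 of 5, Stag1, another subunit, 6 of 12, Pds5a, a cohesin regulator, 3 of 8 and Cdca5, which protects cohesin on chromatin, 1 of 5. At Ctcf itself, 2 of 4 ESC sites were reached, and a day 12 site 552 bp after the start (chr8:105636890-105637289) was absent from the ESC CTCF list although the ESC SMARCA5 list held a peak there.

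**Figure D5:**
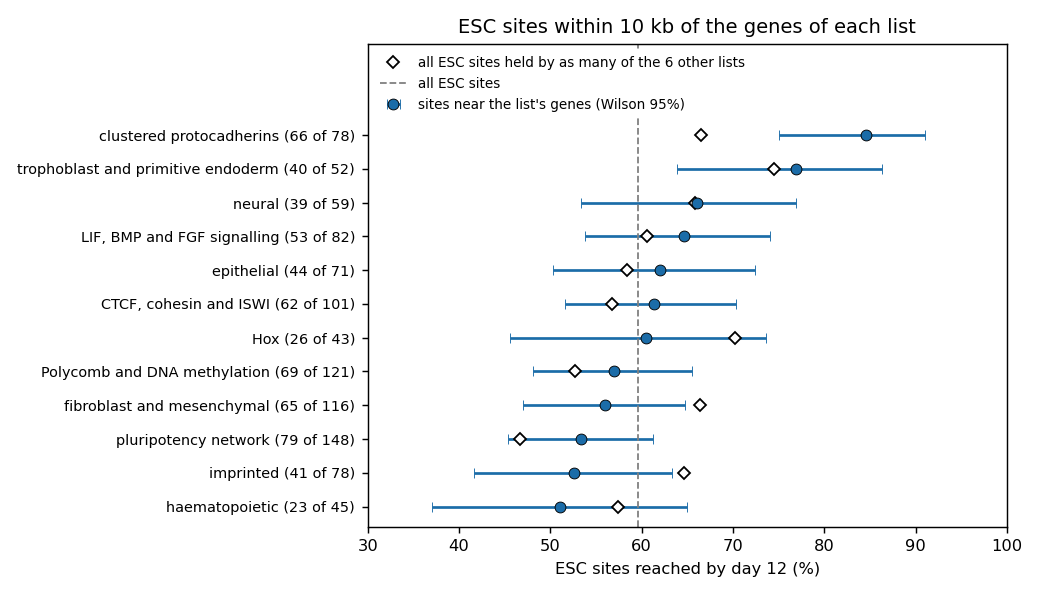
Share (%) of ESC sites within 10 kb of the genes of 12 lists that were reached by day 12, with Wilson 95% intervals; the number reached of all sites is beside each list, the dashed line is the share of all ESC sites (59.6%) and diamonds give the share for all ESC sites held by as many of the 6 other lists. The diamond lies below the interval for protocadherins, above it for imprinted and fibroblast genes and inside it for the other 9 lists.

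Over all protein-coding genes, those with the most unreached ESC sites were long genes. Cdh13, an atypical cadherin, had 25 unreached of 56, Rere, a transcriptional corepressor, 21 of 36, Csmd1, a complement regulator, 20 of 37, Camta1, a transcription activator, 19 of 54, and Ksr2, a scaffold of MAP kinase signalling, 19 of 31. Exoc4, of the exocyst, had the lowest share of the 10, with 4 of 21 reached, and 9 of its 17 unreached sites were in no other reprogramming list. The other members were Ttc28, Tenm4, Rbms3 and Smyd3, with 16 or 17 unreached each. At the other end, Slc7a1, a cationic amino acid transporter, had 10 of 10 reached, and Dnah6, a dynein of cilia, Ercc6, a DNA repair factor, and Tnk2, a kinase, had 9 of 9 each. Zfp341, a zinc finger factor, had 8 of 8.

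Of the 21887 protein-coding genes, 2696 (12.3%) had a day 12 site absent from ESCs within 10 kb. These sites were most numerous at Sfi1, a centrosomal gene, with 7, and at Ank2, an adaptor of the membrane skeleton, Nav2, Ctnna3, an alpha-catenin, Zfp981 and Zfp993, with 5 each. Zfp981 and Zfp993 belong to a family of near-identical zinc finger genes, where reads can be shared between copies, so the sites there are uncertain. The spans of Zfp981 and Zfp993 overlap, so the same site can count for both. At Sfi1, 6 of the 7 were also in the SSEA1+ list and none was in the knockout ESC list. The SSEA1+ list shares coordinates with day 12, and most positions of the knockout list are those of wild-type ESC sites. Neither list is thus a separate check of the sites at Sfi1. Zgrf1, Unc13b, Trappc6b and Gphn had 4 each.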

How the data were processed

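ChIP-seq of CTCF, and in 1 group of SMARCA5, was deposited for mouse cells as 1 peak list per group, of which 11 of 16 lists were used here. The authors deposited intervals of 400 bp with a score of 0 in every line, so peaks could not be ranked. The submitters' processing notes name MACS2 and HOMER, the aligner Bowtie2, the quality and trimming tools FastQC and Trim Galore, and SAMtools, bedtools, deepTools and Picard, on mm10 (GRCm38). The sources used here give no versions, thresholds, way of pooling samples or depth. Samples were grouped by title.

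Overlaps of at least 1 bp were counted with Python 3.11.15 and NumPy 2.4.6, tested on simulated lists and checked against bedtools. Shares have Wilson 95% intervals, and differences of shares normal 95% intervals, both for counting error only. Genes and promoter windows came from RefSeq (GRCm38.p6). A site belonged to a gene when it lay within 10 kb of its span, and all 307 list members were matched. No genome of the build was given, so motifs were searched in promoter windows in place of all sites, as an alternative chosen after seeing the data. Members of the pluripotency list were named, apart from 1 that is not reported here. In the other lists, named genes were those with the most unreached sites, with all sites reached or with the most day 12 sites absent from ESCs, and likewise over all protein-coding genes. Alternatives were a reciprocal overlap of 50%, gaps of 1000 bp, joined or merged lists, other distances to genes and classes of recurrence. Members and gene lists were chosen with earlier results of these data known.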

Additional observations from a re-analysis of the deposited data

How the results depend on the processing

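The share of ESC sites reached (59.6%) was 59.2% with a reciprocal overlap of 50%, 61.0% with gaps of up to 1000 bp, 60.2% over ESC sites also in the Smarca5 knockout list, 63.7% with the day 12 control and Ctcf shRNA lists joined, 60.3% with sites within 1000 bp merged and 58.5% with the SSEA1+ list in place of day 12. The share of day 12 sites absent from ESCs (6.18%) was 6.89% with the reciprocal overlap, 5.36% with gaps, 5.71% with both ESC lists joined and 5.62% after merging. Without the X and Y chromosomes the shares were 59.5% and 6.21%. Reached minus unreached differences were 56.8 points for Thy1+ and 48.7 for day 10 with added Ctcf under the reciprocal overlap, against 56.1 and 48.1. Averaged within classes of recurrence, the SMARCA5 difference was 10.2 points and the Ctcf shRNA difference 8.37. The averaged knockout difference was -0.0949, with its sign turned. Only sites in neither the day 0 nor the day 10 OSKM list had the reached share below the unreached share there. The causes were not tested. The promoter core difference was 18.5 points with the looser and 6.80 with a stricter core, both chosen after seeing the data. All 36 alternatives for the 12 gene lists stayed within the lists' intervals. The pluripotency share was 49.0% within 2.5 kb of the genes and 61.0% within 50 kb, so its place below the 59.6% of all sites depends on that distance. The same holds for imprinted genes (49.2% and 60.7%) and for fibroblast and mesenchymal genes (50.5% and 60.8%). Lists above 59.6% crossed it too. LIF, BMP and FGF genes were at 58.7% within 50 kb. Within 2.5 kb, epithelial genes were at 56.8% and CTCF, cohesin and ISWI genes at 56.6%. Shares of ESC sites held by as many lists are given at 10 kb only. No paired analysis was possible because each group has 1 list. Leaving out a replicate was likewise not run, as the lists do not separate samples. Depth per library is unknown, so a site missing from a list may lie under the caller's threshold.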

Other observations

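Among 1534 windows of 1 Mb with at least 20 ESC sites, the median share reached was 60.0%. It was lowest on chromosome 12 between 5000001 and 6000000, where 5 of 21 were reached (23.8%) around Atad2b, a chromatin-associated ATPase, and Klhl29. It was highest on chromosome 6 between 73000001 and 74000000, where 21 of 22 were reached (95.5%) around Dnah6 and Suclg1, a subunit of a mitochondrial enzyme. The longest run of neighbouring reached sites held 30 sites at chr2:152343392-152617771, a region of beta-defensin genes such as Defb20 and Defb22, and another held 27 sites at chr5:150020846-150281478, across Rxfp2, a hormone receptor, and Fry. The longest run of unreached sites outside the Y chromosome held 14 sites at chr17:87347765-87521933, around Ttc7, Stpg4 and Calm2, a calmodulin gene. Windows and runs were ranked by the outcome itself, so these are descriptions with no test and do not show that sites were spread unevenly.

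On the Y chromosome, 2 of 30 ESC sites were reached (6.67%), 26 of the unreached ones in a row, and 4 of the 6 day 12 sites there were absent from ESCs. Most genes of this region are in many near-identical copies, and how reads with several matches were treated is not given in the sources used here. The ESC line is male. The sex of the fibroblasts was not among the variables used, and its part in the X and Y shares was not tested.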
